A study of Mus musculus with 13 samples.

Results

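Ubiquitin-conjugating E2 enzyme genes were followed through RNA-seq of single mouse oocytes before and after meiotic maturation. The members were the gene symbols in the count tables that start with Ube2 and a further letter, without Ube2t. Of 18939 symbols, 38 such members are described here, of which 30 passed the filter on low counts in the comparison of both stages. The 38 include 2 processed pseudogenes (Ube2d4 and Ube2nl), an antisense transcript (Ube2uos) and Ube2cbp, a gene for an E2-binding protein that acts as a ubiquitin ligase. The libraries fell into 4 groups: 3 SN GV oocytes, 3 NSN GV oocytes, 4 SN-MII oocytes, which were SN at GV and had reached MII, and 3 NSN-MII oocytes, which were NSN at GV. In SN (surrounded nucleolus) oocytes chromatin rings the nucleolus, and in NSN (non-surrounded nucleolus) oocytes it does not. All oocytes came from C57BL/6 females 3 to 4 weeks old that had received PMSG, carried injected FBL–GFP mRNA with H2B-mCherry mRNA as nuclear marker, and were held at GV with Cilostamide for 6 h while the FBL–GFP pattern was read. MII oocytes were then released and matured in vitro, so the groups have no uninjected oocyte among them, and type at MII means the pattern seen at GV. Each library was 1 oocyte, and which oocytes shared a female is not given.

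Ubiquitin reaches its targets through a relay. An E1 enzyme activates ubiquitin at the cost of ATP, an E2 enzyme takes it over as a thioester, and an E3 ligase brings the charged E2 to the target. The E2 often sets which chain is built, and separate E2s serve ubiquitin-like modifiers such as NEDD8. Meiotic maturation depends on this relay, since the anaphase-promoting complex (APC/C), an E3, marks cyclin B1 and securin for destruction, and the oocyte must do so without new transcription.

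Total counts per library were between 7140416 and 8846287, and between 11579 and 13333 genes had at least 1 count, with the fewest in NSN-MII replicate 3. All 10 oocyte marker genes on the list were present in every group, with summed levels of 23105 to 32036 counts per 1000000 counts (CPM) in GV and 16838 to 22671 CPM in MII libraries. Of 15 cumulus and granulosa cell markers, Foxl2, Fst and Ptx3 were at 0 in all 13 libraries. Cyp19a1, Nr5a2 and Kitl had counts in all 13, up to 934, 176 and 113 in a library. Cyp11a1 (up to 46 counts) and Has2 (up to 38 counts) had counts in 10 libraries. The summed level of these 15 was 61.5 to 92.5 CPM in GV and 99.1 to 188 CPM in MII libraries, most of it from Cyp19a1, and its part in the results was not tested. cDNA was primed on poly(A) tails, so a change in mRNA amount and a change in tail length cannot be told apart in any value here, and all values are shares of the mRNA captured, not amounts per oocyte. The study's methods name neither molecular identifiers nor strand, so reads of Ube2u and of Ube2uos, which overlap on opposite strands, cannot be told apart.

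Close relatives among the E2 genes are similar enough to raise the question of shared reads. Ube2a and Ube2b, the mammalian RAD6 homologs, are shown over bases 46 to 105 of their coding sequences (GENCODE M21, GRCm38), with capitals at the 20 of 60 positions where they differ.
Ube2a (chrX:36874712-36874771, + strand): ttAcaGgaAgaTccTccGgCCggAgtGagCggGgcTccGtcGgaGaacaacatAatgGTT
Ube2b (chr11:51997838-51997897, - strand): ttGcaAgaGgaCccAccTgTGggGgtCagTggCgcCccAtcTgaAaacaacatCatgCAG
Over the full coding sequence, 102 of 456 bases differed (77.6% identity), and the longest run shared by the 2 transcripts was 18 bases. Ube2d2a and Ube2d3 were 86.4% identical with a shared run of 42 bases, and Ube2d2a and the retrogene Ube2d2b 92.7%. Ube2a and Ube2b had whole-number counts in all 13 libraries, and show no sign of reads divided between genes. Counts of Ube2d2a, Ube2n, Ube2h, Ube2v2 and Ube2e1 were not whole in any library and those of Ube2d3 were not whole in 12, so part of their reads had been divided with other genes. In all, 15 members had such counts in at least 1 library, among them Ube2g2 in 11, Ube2l3 in 9, Ube2v1 in 6, Ube2w in 5, and Ube2k and Ube2s in 4 each, and the values of all 15 carry that uncertainty.

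The 3′ ends of the transcripts are shown because poly(A) priming starts there. During maturation, stored mRNAs with a cytoplasmic polyadenylation element (CPE, searched as TTTTAT or TTTTAAT) near a polyadenylation signal (AATAAA or ATTAAA) can gain a longer tail. Both were searched on the transcript strand in the last 100 bases of 1 GENCODE transcript per gene, counting overlapping matches. Windows of 30 bases follow for a few members that the results below turn on, with the matches in capitals.
Ube2d3 (chr3:135468164-135468193, + strand): ggaattgttaccATTAAAgtctgtgtttaa
Ube2h (chr6:30211298-30211327, - strand): taaacttttttaAATAAAatgtgtatatac
Ube2d1 (chr10:71254985-71255014, - strand): cttttccatataAATAAAatgctttttcta
Ube2a (chrX:36884190-36884219, + strand): tcaaaagttgtaAATAAAaaaataacctta
Ube2v1 (chr2:167607644-167607673, - strand): cgagtctactatAATAAAaaagtatgcttt
Ube2c (chr2:164772866-164772895, + strand): caatgtatATTAAATAAAtacacattgatt
Ube2w (chr1:16569793-16569822, - strand): gtgattaatgtaTTTTATaaattacctttt
Of the 30 members tested, 27 held the signal, against 81.5% of 10796 genes tested that had such a window. A CPE was found in 3 of the 30, namely Ube2q2, Ube2g2 and Ube2w, against 2159 of 10796 genes. Among all genes called higher at MII 29.7% held a CPE, and among those called lower 10.9%. Of the members, 1 of the 8 called higher (Ube2q2) and 1 of the 13 called lower (Ube2w) held one. Ube2w is a member whose window shows a CPE and whose 100 bases held no signal. A match is a description of the annotated end, and the ends used in these oocytes may differ.

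Levels between genes are given per length, as FPKM. The oocytes held a few abundant E2 mRNAs and many scarce ones. Ube2d3 was the highest of the 38, at 908 ± 127 FPKM in GV (SD, n = 6) and 1436 ± 125 FPKM in MII oocytes (n = 7), and it works with many different E3s. Next in the mean over all libraries were Ube2k, which builds K48-linked chains, at 233 ± 21.1 FPKM (SD, n = 13), Ube2c, the E2 that starts chains on APC/C targets, at 175 ± 94.1 FPKM, Ube2d2a at 142 ± 69.2 FPKM and Ube2n at 113 ± 46.9 FPKM. Ube2d3 lay above Ube2k by more than their spreads, whereas Ube2c and Ube2d2a overlapped both Ube2k and Ube2n once the stages were pooled. All libraries of Ube2k lay above those of Ube2n. These 5 made up 77.6% of the summed FPKM of the 38 members, and 18 members had a mean of at least 10 FPKM. At the other end, Ube2q1 had 0.345 FPKM on average, Ube2d4 had 1 count in 1 library and Ube2dnl2 2 counts in 1 library. Ube2d2b, Ube2ql1 and Ube2nl had no count in any library. Ube2l6, the E2 for the interferon-induced modifier ISG15, had at most 8 counts in a library.

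**Figure D1:**
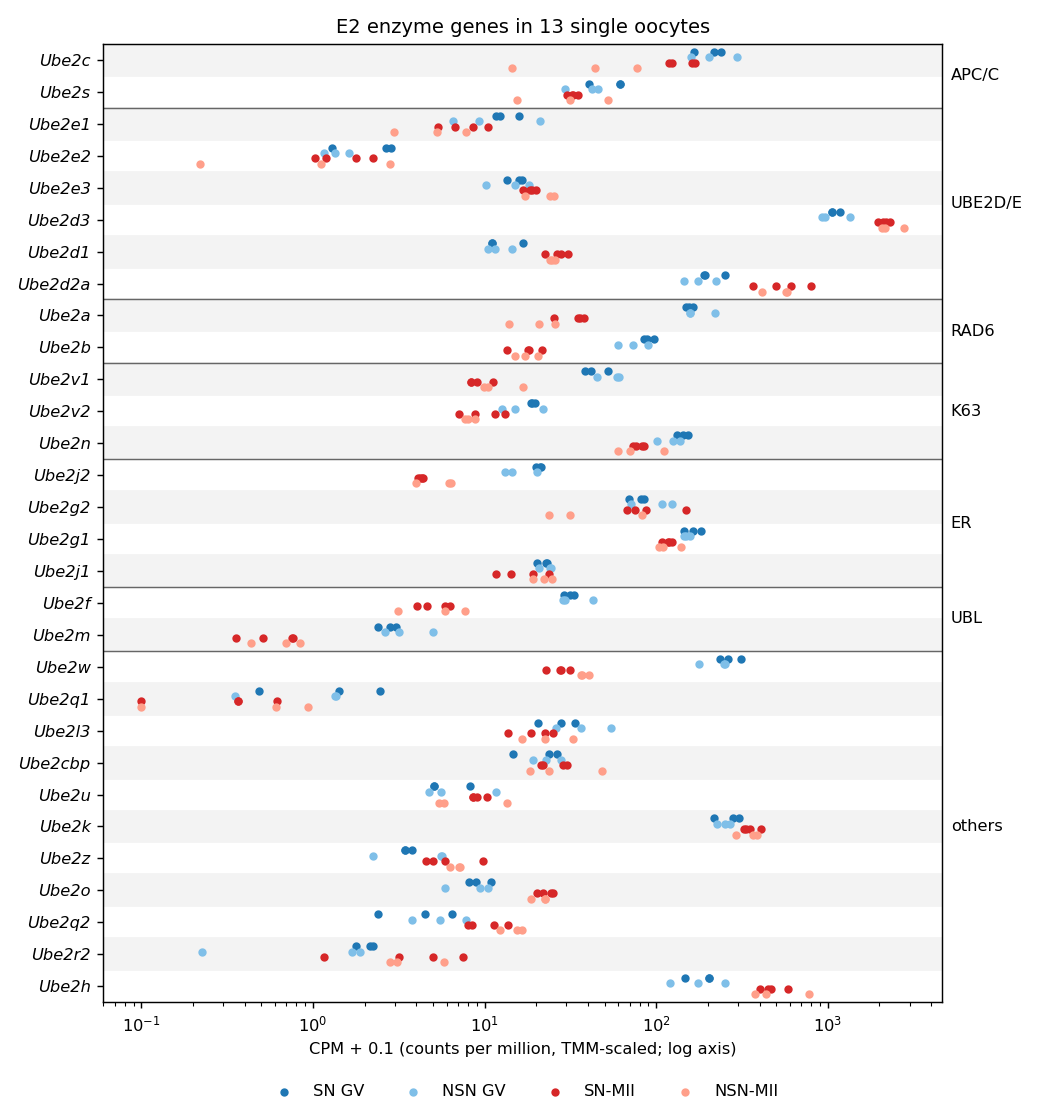
CPM of the 30 members tested, in 13 single oocytes, on a log axis (0.1 added); each point is 1 library, colours are the 4 groups and labels on the right the roles (UBL: E2s for ubiquitin-like modifiers). Ube2d3 is highest throughout, and for Ube2w, Ube2a, Ube2b, Ube2f, Ube2v1 and Ube2j2 the MII points lie well to the left of all GV points.

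Maturation from GV to MII was the comparison in which E2 mRNAs changed. By edgeR's quasi-likelihood test over all genes (Benjamini-Hochberg adjusted p under 0.05), 21 of the 30 members tested differed, 8 higher (31.7% of all genes) and 13 lower at MII (36.8% of all genes). These 21 stood beside 68.5% of all 11375 genes tested, so the E2 genes were called about as often as genes at large. Their median log2 change was -0.43, beside -0.10 for all genes, and the median size of change 1.05, beside 1.14. In 14 of the 30 the GV and MII libraries did not overlap, 6 higher and 8 lower, beside 47.4% of all genes (20.9% higher and 26.5% lower). The direction counts depend on scaling. With library totals in place of TMM factors, 6 members were higher and 17 lower, and the median of all genes moved to -0.39. On log2(FPKM + 1) with limma, 6 were higher and 18 lower. Shares of all genes called under these settings are not given, so the splits cannot be set against genes at large. Ube2m and Ube2q1 did not pass the filter among MII libraries alone and entered through their GV counts. Both stand among the 17 and among the 18 called lower at these settings. The 18 also hold Ube2dnl1, which was not among the 30 members tested. Of the 28 members that passed at MII as well, 20 were called, 8 higher and 12 lower.

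The RAD6 pair fell together. Ube2a and Ube2b work with the RNF20–RNF40 ligase, which marks histone H2B, and the RAD18 ligase, which marks PCNA at stalled replication forks. Ube2a was at 163, 149.9 and 155 CPM in SN GV, 158, 221 and 157 in NSN GV, 37.8, 34.9, 36.02 and 25.2 in SN-MII and 20.6, 25.6 and 13.8 in NSN-MII oocytes. All MII libraries were thus several fold below the lowest GV library, and the change was -2.68 ± 0.17 on the log2 scale (SE, adjusted p = 1.01e-09). Ube2b was at 96.8, 84.5 and 88.6 CPM in SN GV, 72.7, 89.4 and 59.96 in NSN GV, 21.4, 17.7, 18.01 and 13.4 in SN-MII and 20.4, 17.1 and 14.9 in NSN-MII oocytes. It fell by 2.22 ± 0.17 (adjusted p = 9.29e-09), again without overlap. Per length, Ube2a made up 63.4% ± 5.40 of the pair at GV (SD, n = 6) and 46.5% ± 7.38 at MII (n = 7). This share rests on the length by which FPKM was divided, which moved for Ube2a as described with Ube2j1 below. The ratio of Ube2a to Ube2b in CPM, which uses no length, was 2.08 ± 0.401 at GV and 1.58 ± 0.449 at MII, and these ranges overlapped. The ligase partners did not move as one, since Rnf20 rose (1.16, adjusted p = 3.28e-05), Rad18 rose (1.24, adjusted p = 3.86e-06) and Rnf40 fell (-2.31, adjusted p = 9.32e-08).

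The 3 UBE2D genes that passed the filter rose. They encode promiscuous E2s that many RING and HECT ligases use. Ube2d3 was at 1183, 1051 and 1064 CPM in SN GV, 969, 1342 and 928 in NSN GV, 1973, 2182, 2104 and 2305 in SN-MII and 2076, 2161 and 2790.0 in NSN-MII oocytes. The lowest MII library stood above the highest GV library, and the rise was 1.04 ± 0.13 (adjusted p = 3.04e-06). Ube2d2a was at 193, 251 and 189 CPM in SN GV, 174, 146 and 221 in NSN GV, 364, 501, 610.5 and 794 in SN-MII and 412, 572 and 576 in NSN-MII oocytes, a rise of 1.48 ± 0.18 (adjusted p = 2.29e-06). The SN-MII libraries were spread widely for this gene, the highest more than 2 times the lowest. Ube2d1, much scarcer, was at 10.4, 11.2 and 16.5 CPM at GV (lowest, median and highest) and 22.4, 25.6 and 30.5 CPM at MII, a rise of 1.05 ± 0.20 (adjusted p = 0.000153). The 3 rises were called under each alternative run. Of the related UBE2E genes none was called higher. Ube2e1 fell by 0.99 ± 0.32 (adjusted p = 0.0129) from 6.45, 11.9 and 20.9 CPM (lowest, median and highest) to 2.87, 6.64 and 10.4 CPM, with overlap between the stages. Without NSN GV replicate 1, its highest library, the Ube2e1 value was -0.66 (adjusted p = 0.0682, from 0.00332 to 0.0682 over the alternatives). Ube2e2 (-0.28, adjusted p = 0.697) and Ube2e3 (0.45, adjusted p = 0.0615) were not called, and Ube2e3 was called higher without NSN GV replicate 3 or without NSN-MII replicate 1 (adjusted p from 0.0341 to 0.486 over the alternatives).

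The E2s for K63-linked chains were lower at MII, each of them. Ube2n (UBC13) is the catalytic E2, and Ube2v1 and Ube2v2 (MMS2) are inactive E2 variants that pair with it, for signalling and for DNA damage tolerance. Ube2v1 was at 41.7, 38.3 and 52.2 CPM in SN GV, 60.9, 58.8 and 45.2 in NSN GV, 11.1, 8.22, 8.94 and 8.18 in SN-MII and 10.4, 16.6 and 9.79 in NSN-MII oocytes. It fell by 2.22 ± 0.20 without overlap (adjusted p = 4.71e-08). Ube2v2 fell less, by 0.97 ± 0.23 (adjusted p = 0.00124), from 12.5, 18.7 and 21.9 CPM (lowest, median and highest) to 6.97, 8.69 and 13.005 CPM. Ube2n fell by 0.72 ± 0.16 (adjusted p = 0.00058), from 100.4, 134 and 153 CPM to 59.9, 75.7 and 111 CPM. In TMM-scaled CPM the library at the top of that range, NSN-MII replicate 3, lay among the GV values. Before scaling it had 655 counts, beside 955 or more in GV libraries. In FPKM it was at 90.4, beside 137 or more in GV libraries. On log2(FPKM + 1) Ube2n was at -1.12 and Ube2v2 at -1.14. The FPKM ratio of Ube2n to the sum of both variants was 3.16 ± 0.689 at GV (SD, n = 6) and 5.27 ± 1.71 at MII (n = 7). This ratio rests on the length by which FPKM was divided, which moved for Ube2n as described with Ube2j1 below.

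Of the APC/C pair, Ube2c puts the first ubiquitin on a target and Ube2s extends the chain. Ube2c was at 216, 166 and 239 CPM in SN GV, 202, 294 and 159 in NSN GV, 118, 124, 163 and 167 in SN-MII and 77.5, 43.7 and 14.4 in NSN-MII oocytes. The SN-MII libraries reached into the range of the GV libraries and the NSN-MII libraries lay below all others. Over both types Ube2c fell by 1.40 ± 0.27 (adjusted p = 0.000252). Ube2s was at 61.2, 40.2 and 61.2 CPM in SN GV, 45.6, 42.3 and 29.2 in NSN GV, 32.8, 34.8, 30.2 and 32.04 in SN-MII and 52.4, 31.2 and 15.4 in NSN-MII oocytes. The Ube2s change of -0.49 ± 0.24 was not called (adjusted p = 0.0761), though it was called under 6 of 21 alternatives (without NSN-MII replicate 1, -0.77 with adjusted p = 0.00728, over a range of 0.00728 to 0.155). APC/C genes from the ligase list went both ways. Cdc20, the activator needed to leave metaphase, rose from 246 ± 30.6 to 591 ± 119.5 CPM (1.27, adjusted p = 1.61e-06). Fzr1, the activator that acts in GV arrest, fell from 64.4 ± 19.1 to 7.37 ± 4.64 CPM (-3.21, adjusted p = 6.18e-07). The catalytic subunits Anapc2 (-2.78, adjusted p = 1.47e-09) and Anapc11 (-1.13, adjusted p = 0.000496) fell.

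Among the E2s of endoplasmic reticulum quality control, which remove misfolded proteins from that organelle, 2 of 4 fell and none rose. Ube2j2, anchored in the reticulum membrane, was at 20.8, 19.9 and 21.3 CPM in SN GV, 20.1, 14.4 and 13.03 in NSN GV, 4.25, 3.98, 4.21 and 4.09 in SN-MII and 6.31, 6.06 and 3.88 in NSN-MII oocytes. Its change of -1.93 ± 0.23 was without overlap (adjusted p = 1.38e-06), and the 4 SN-MII libraries were nearly equal. Ube2g1 fell by 0.42 ± 0.13 (adjusted p = 0.00687), with 145, 154 and 181 CPM at GV (lowest, median and highest) and 104, 117 and 139 CPM at MII, also without overlap. The counts of Ube2j1, the other membrane-anchored member, changed by -0.22 ± 0.20 (adjusted p = 0.343), and those of Ube2g2 by -0.44 ± 0.27 (adjusted p = 0.158). Neither was called. Ube2g2 was called lower in 4 of 21 alternatives, namely library totals, log2(FPKM + 1), log2(FPKM + 0.1) and without NSN-MII replicate 3 (-0.83), with an adjusted p from 0.003 to 0.322 over all of them. The ligase gene Syvn1 (HRD1), which works in the same organelle, rose (1.07, adjusted p = 4.46e-05). Rnf139, another ligase gene of that organelle, was not called (0.25, adjusted p = 0.152).

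Counts and FPKM gave different answers for Ube2j1. On log2(FPKM + 1), limma gave -1.38 (adjusted p = 8.63e-06), whereas the count test gave no call with TMM factors and -0.52 with library totals (adjusted p = 0.0328). The ratio of a gene's count to its FPKM holds the length by which the authors' program divided, an average over the gene's transcripts weighted by their estimated abundance. Each ratio was set to 1 for the mean of the GV libraries and to the median gene of each library. For Ube2j1 this relative length was 0.860 to 1.14 in GV libraries and 1.71 to 2.40 in MII libraries, so that the 2 stages did not overlap and NSN-MII replicate 2 was the lowest at MII. Ube2l3 rose to 1.54 ± 0.184, Ube2g1 to 1.43 ± 0.00125 and Ube2a to 1.42 ± 0.160 (SD, n = 7), each without overlap with GV. These 4 of 22 members with at least 20 counts in every library shifted by 0.5 or more on the log2 scale, beside 4.94% of 6849 genes. Smaller shifts, also without overlap, were seen at MII for Ube2n (1.19 ± 0.0720), Ube2d3 (1.16 ± 0.0292), Ube2k (1.15 ± 0.0358) and Ube2w (0.908 ± 0.0664). Genes such as Ube2d1 (0.998 ± 0.000874 at MII) and Ube2c (0.999 ± 0.00313) stayed at 1. Ube2j1, Ube2l3, Ube2g1 and Ube2a were thus given a clearly longer average transcript at MII, and which transcripts these were was not analysed here.

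**Figure D2:**
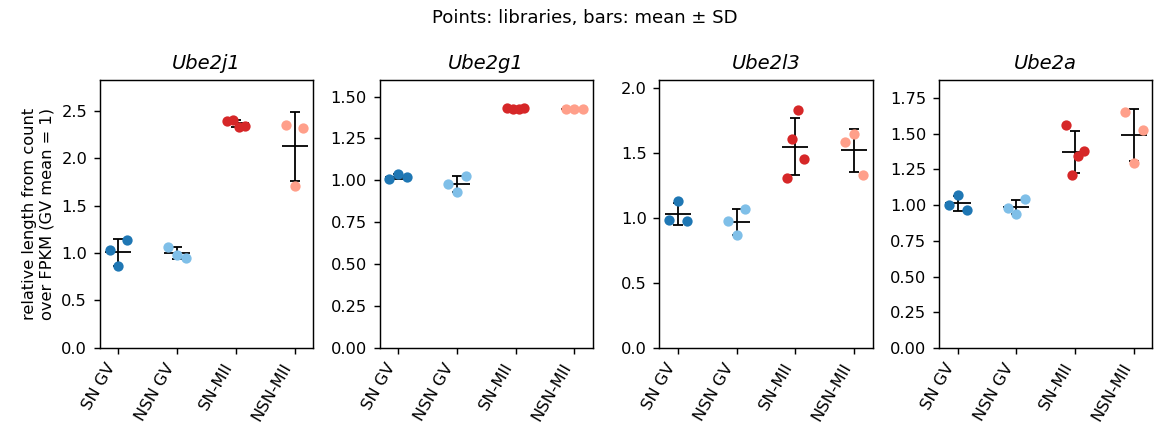
Relative length (count divided by FPKM, GV mean set to 1) of Ube2j1, Ube2g1, Ube2l3 and Ube2a in each library, grouped by type and stage; black bars are mean ± SD. All MII points lie above all GV points in the 4 panels, and the Ube2j1 values of 6 MII libraries lie between 2.32 and 2.40 while NSN-MII replicate 2 is at 1.71.

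The NEDD8 E2 Ube2f fell. Ube2f and Ube2m pass this ubiquitin-like modifier to cullins, the scaffolds of the largest ligase family. Ube2f was at 31.5, 29.1 and 33.2 CPM in SN GV, 29.2, 42.5 and 28.7 in NSN GV, 4.51, 5.78, 6.18 and 3.95 in SN-MII and 7.62, 5.81 and 3.04 in NSN-MII oocytes, a change of -2.60 ± 0.24 without overlap (adjusted p = 8.25e-08). Ube2m was scarce, at 2.28 to 4.87 CPM in GV and 0.257 to 0.742 CPM in MII libraries, the latter 2 to 6 counts each. Since it passed the filter through its GV libraries alone, its value of -2.48 ± 0.50 (adjusted p = 0.000341) is a description. Nedd8 itself fell (-1.76, adjusted p = 8.07e-05) and its E1 subunits Nae1 (0.72, adjusted p = 0.000262) and Uba3 (1.02, adjusted p = 1e-05) rose.

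Of the remaining 11 members tested, 5 rose and 2 fell. Ube2w, which attaches ubiquitin to the N-terminus of its targets, had the largest fall of the 30 on TMM-scaled counts over both types, while on FPKM and within NSN oocytes Ube2a fell more. It was at 312, 261 and 236 CPM in SN GV, 177, 249 and 251 in NSN GV, 27.3, 22.7, 27.6 and 31.5 in SN-MII and 40.4, 36.7 and 36.1 in NSN-MII oocytes, a change of -2.94 ± 0.15 (adjusted p = 8.34e-11). Ube2w is also the called-lower member with a CPE. Ube2h, the E2 of the CTLH ligase complex, was at 203, 202 and 146 CPM in SN GV, 119.7, 176 and 250.1 in NSN GV, 446, 403, 467 and 587 in SN-MII and 378, 438 and 774 in NSN-MII oocytes. It rose by 1.46 ± 0.20 without overlap (adjusted p = 8.13e-06). Of the CTLH subunits on the ligase list, Rmnd5a rose (1.42, adjusted p = 7.52e-05) and Maea fell (-0.78, adjusted p = 5.97e-05). Ube2o, a large enzyme with E2 and E3 activity, rose, with 5.75, 9.11 and 10.8 CPM at GV (lowest, median and highest) and 18.5, 22.3 and 24.9 CPM at MII (1.30 ± 0.21, adjusted p = 4.16e-05). Ube2q2 rose, with 2.295, 4.87 and 7.67 CPM at GV (lowest, median and highest) and 7.91, 12.2 and 16.3 CPM at MII (1.31 ± 0.30, adjusted p = 0.000963). Both were without overlap between stages. Ube2k rose by 0.45 ± 0.13 (adjusted p = 0.00648), from 217, 259 and 304 CPM (lowest, median and highest) to 289.7, 352 and 406 CPM, and this call was lost with library totals and on FPKM. Ube2r2, a second CDC34-type E2, was at 0.125 to 2.13 CPM at GV and 1.06 to 7.36 CPM at MII, with overlap (1.38 ± 0.55, adjusted p = 0.0353). Its call was lost in 12 of 21 alternatives, namely library totals, the FPKM fits, the replicate block and leaving out SN GV replicate 1, 2 or 3, NSN GV replicate 2, SN-MII replicate 3 or 4, or NSN-MII replicate 1 (adjusted p up to 0.191). Ube2l3, which serves HECT and RING-between-RING ligases, was at 20.3, 30.6 and 54.6 CPM at GV (lowest, median and highest) and 13.5, 22.3 and 32.8 CPM at MII. It fell by 0.58 ± 0.24 (adjusted p = 0.0404), and the call was lost on leaving out SN GV replicate 1 or 3, NSN GV replicate 1 or 2, SN-MII replicate 2 or 3, or NSN-MII replicate 1 or 3 (adjusted p = 0.0516 to 0.128). On log2(FPKM + 1) it was -1.27 (adjusted p = 0.000604). Ube2z, Ube2u, Ube2q1 and Ube2cbp were not called.

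**Figure D3:**
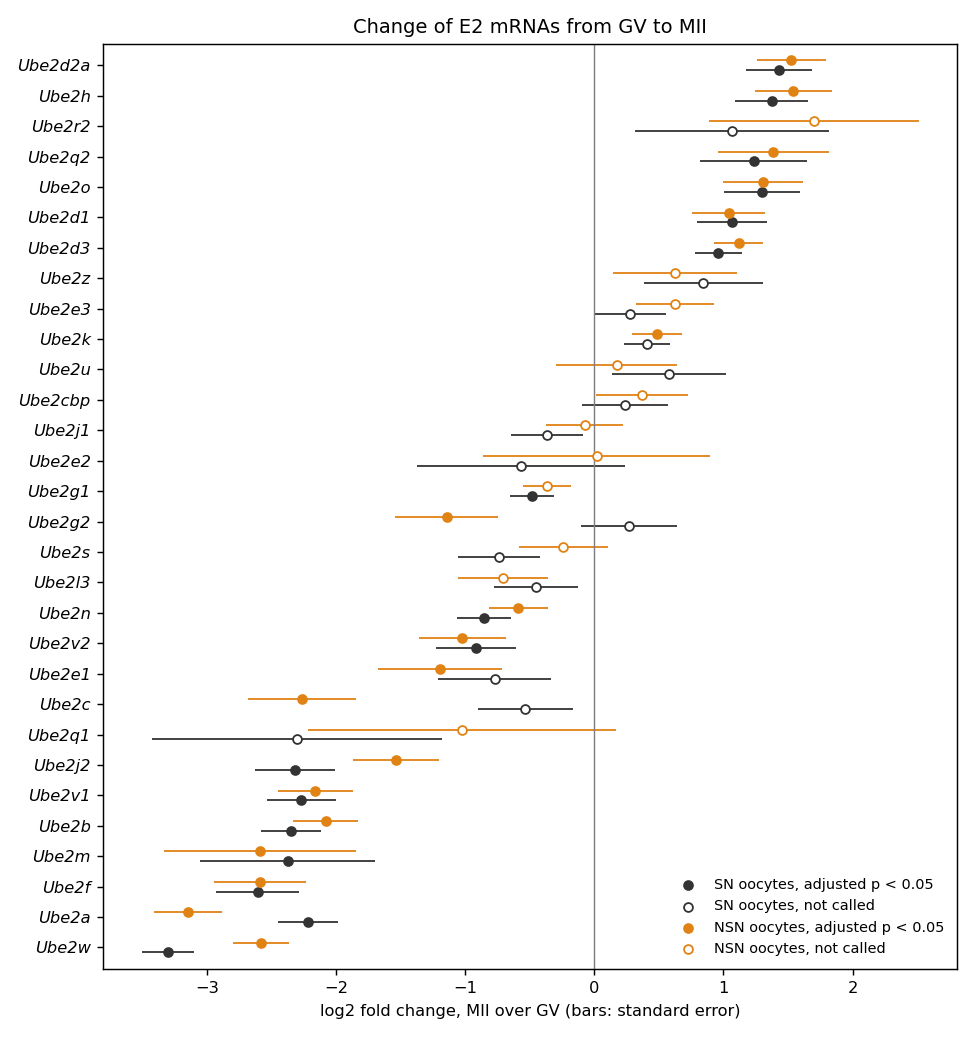
Log2 fold change from GV to MII of the 30 members tested, in SN oocytes (dark) and NSN oocytes (orange), with standard errors; filled points had an adjusted p under 0.05. Ube2c and Ube2g2 show the widest gaps between types (-1.73 and -1.41), neither called.

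In FPKM, the make-up of the E2 mRNA pool shifted at MII, while its sum differed by less than its spread. The summed FPKM of the 38 members was 2387 ± 248 in GV (SD, n = 6) and 2395 ± 126 in MII oocytes (n = 7). Ube2d3 made up 37.9% ± 1.49 of the sum at GV and 59.9% ± 3.50 at MII. Ube2d1, Ube2d2a and Ube2d3 together made up 40.4% to 43.0% in GV libraries, 65.4% to 67.7% in SN-MII and 68.5% to 74.1% in NSN-MII libraries, with no overlap between these ranges. The difference between the MII types was not tested. These sums and shares hold for FPKM, which use no TMM factor. They also rest on the relative length, which rose for Ube2d3, Ube2k and Ube2n as described with Ube2j1 above. On log2(FPKM + 1) Ube2d3 rose by 0.68, beside 1.04 in TMM-scaled counts, and a sum of CPM was not taken.

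**Figure D4:**
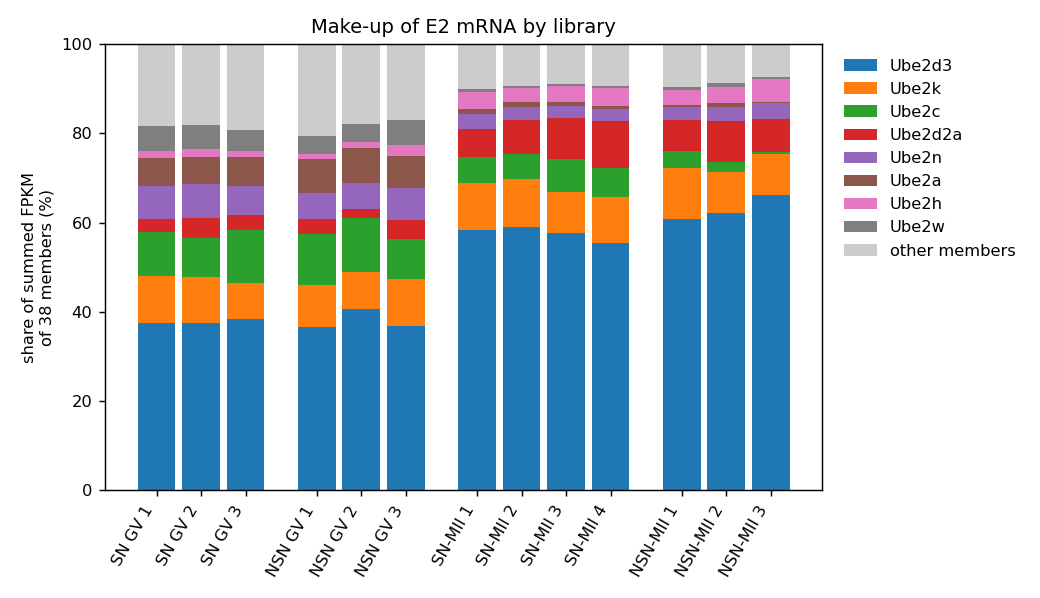
Share of the summed FPKM of the 38 members taken by the 8 most abundant members and by all others (grey), 1 bar per library. The share of Ube2d3 (bottom) is between 36.7% and 40.7% in GV and between 55.3% and 66.2% in MII libraries, and that of Ube2c (green) is thin in NSN-MII libraries.

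Maturation was also compared within each type. The MII libraries hold only oocytes that matured. The study reports that NSN oocytes broke down the GV and extruded a polar body significantly less often than SN oocytes. A change during maturation and a selection of the oocytes that matured cannot be told apart, here or between the types at MII. In SN oocytes 16 of 30 members were called, 6 higher and 10 lower, beside 56.3% of all genes (25.1% higher and 31.2% lower). In NSN oocytes 19 were called, 7 higher and 12 lower, beside 56.1% of all genes (25.4% higher and 30.7% lower). With library totals the NSN split of the members was 5 and 14, and the split of all genes at that setting is not given. These comparisons share no library, but they came from 1 fit with a common filter, scaling and estimate of spread. The same 15 genes were called in both and each moved the same way, which is 93.8% of the SN calls and 78.9% of the NSN calls. Ube2m, which passed the filter through its GV libraries alone, is among the 15 and thus among the lower calls of each type. Over all genes, 85.1% of the SN calls and 85.3% of the NSN calls were shared with the same direction. Ube2g1 was called in SN oocytes alone, and Ube2c, Ube2e1, Ube2g2 and Ube2k in NSN oocytes alone. Ube2c fell by 2.27 ± 0.42 in NSN oocytes (adjusted p = 0.000234) and had -0.53 ± 0.37 in SN oocytes (adjusted p = 0.229). Ube2g2 fell by 1.15 ± 0.40 in NSN oocytes (adjusted p = 0.0224) and had 0.27 ± 0.37 in SN oocytes (adjusted p = 0.556). The difference between types was tested as the interaction of type and stage, and 0 of 30 members were called, beside 0.0176% of all genes. At an unadjusted p under 0.05 there were 4 members, beside 5.3% of all genes, and DESeq2 and limma called 0. They were Ube2c (-1.73 ± 0.55, adjusted p = 0.653), Ube2a (-0.93 ± 0.34, adjusted p = 0.775), Ube2g2 (-1.41 ± 0.54, adjusted p = 0.805) and Ube2w (0.72 ± 0.28, adjusted p = 0.805).

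NSN and SN GV oocytes, which differ in nucleolar state before maturation, showed no called difference in any E2 gene. The test called 0 of 30 members, and 0% of all 10839 genes tested. At an unadjusted p under 0.05 there were 0 members, beside 1.69% of all genes, DESeq2 and limma called 0, and the libraries of the 2 types overlapped for every member (6.03% of all genes did not overlap). The members of lowest p were Ube2l3 (0.53 ± 0.33), Ube2s (-0.45 ± 0.28) and Ube2g2 (0.39 ± 0.26), each with an adjusted p of 1. Among the abundant members, Ube2d3 was at -0.01 ± 0.17, Ube2k at -0.08 ± 0.16, Ube2c at 0.09 ± 0.25, Ube2d2a at -0.20 ± 0.20 and Ube2n at -0.23 ± 0.16. These values do not show that the types are equal, since 3 oocytes per type leave standard errors of this size.

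Between NSN-MII and SN-MII oocytes no E2 gene was called by edgeR. Of 28 members tested, 0 were called, beside 0.279% of 10028 genes, and 3 had an unadjusted p under 0.05, beside 9.39% of all genes. The strongest was Ube2c, whose 3 NSN-MII libraries, at 77.5, 43.7 and 14.4 CPM, lay below the 4 SN-MII libraries, at 118, 124, 163 and 167 CPM. Its difference was -1.65 ± 0.44 (adjusted p = 0.202). DESeq2 called it (-1.66, adjusted p = 0.00336) and limma on FPKM did not. NSN-MII replicate 3 had the lowest value and the fewest detected genes, and without it edgeR called Ube2c at -1.23 (adjusted p = 0.0222). Over the alternatives run the Ube2c difference kept its sign, with an adjusted p from 0.00336 to 0.577, and these 2 settings gave the call. Ube2g2 was at 23.7, 31.2 and 82.6 CPM in NSN-MII and 67.5, 86.6, 75.1 and 149.8 CPM in SN-MII oocytes (-1.07 ± 0.41, adjusted p = 0.412). Here NSN-MII replicate 3 lay among the SN-MII values, and without it Ube2g2 was called at -1.78 (adjusted p = 0.0175, from 0.0175 to 0.714 over the alternatives). Ube2a was at -0.74 ± 0.28 (adjusted p = 0.407). For 2 of the 28 members the libraries of the types did not overlap, beside 10.2% of all genes. These were Ube2c, lower in NSN-MII (5.56% of all genes), and Ube2w, higher in NSN-MII (4.61%).

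**Figure D5:**
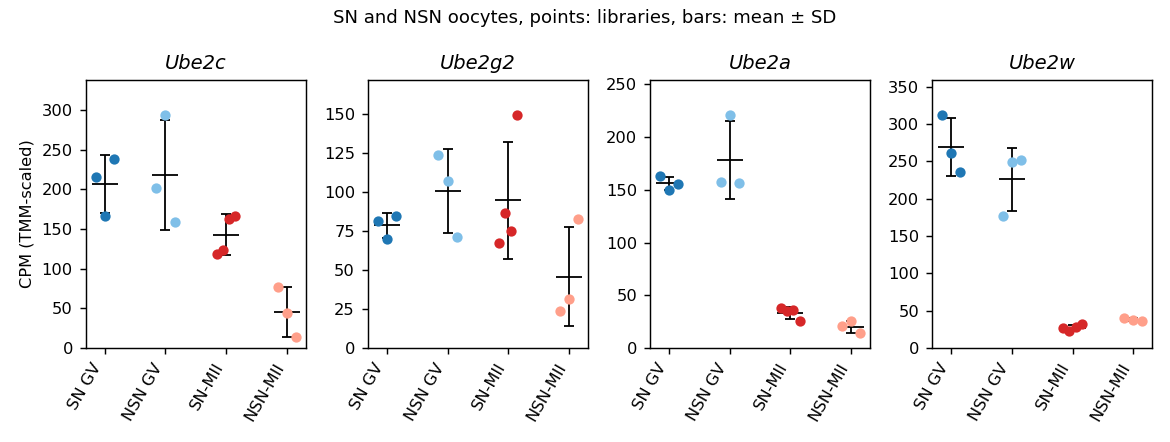
CPM of Ube2c, Ube2g2, Ube2a and Ube2w in each library by type and stage; points are libraries and black bars mean ± SD. The 3 NSN-MII points of Ube2c are at 77.5 CPM or below and the 4 SN-MII points at 118 CPM or above, while for Ube2g2 1 NSN-MII point lies among the SN-MII points.

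The other genes of the relay were read from 4 lists, at maturation from GV to MII. Of all 11375 genes tested, 31.7% were called higher and 36.8% lower. Of 8 E1 genes tested, 4 rose and none fell (median 0.65, beside -0.10 for all genes), with Uba2, for SUMO (0.61, adjusted p = 0.000265), and Uba6, which charges Ube2z (0.68, adjusted p = 0.0108), beside Nae1 and Uba3 above. With DESeq2 size factors 4 E1 genes rose and 1 fell, and with library totals 3 rose and 1 fell. On log2(FPKM + 1) 9 were tested, of which 3 rose and 2 fell (median 0.32). Uba1, the main ubiquitin E1, was at -0.11 (adjusted p = 0.573). Of 10 modifier genes 2 rose and 5 fell (median -1.20). Among MII libraries alone 9 of the 10 passed the filter. Urm1, at 2.82 CPM in GV and 0.307 CPM in MII oocytes, entered through its GV counts, so its place among the 5 is a description. The polyubiquitin gene Ubb fell from 6154 ± 1192 to 630.3 ± 166 CPM (-3.32, adjusted p = 4.41e-10). Rps27a, a ribosomal protein fused to ubiquitin, fell from 188 ± 50.99 to 2.46 ± 1.39 CPM (-6.36, adjusted p = 8.34e-11). Sumo3 fell (-1.58, adjusted p = 1.2e-07) and Sumo2 rose (0.78, adjusted p = 0.000146). Of 8 E2-like genes with other names, 3 rose, among them Cdc34 (0.61, adjusted p = 0.00281) and Birc6 (1.22, adjusted p = 9.38e-05), and 2 fell, Ufc1, the E2 for UFM1 (-3.91, adjusted p = 8.33e-09), and Tsg101, an inactive E2 variant of endosomal sorting (-1.08, adjusted p = 2.17e-05). Of 26 ligase partners 14 rose and 9 fell (median 0.47). With library totals 12 rose and 10 fell, and on log2(FPKM + 1) 9 rose and 9 fell. Between NSN and SN oocytes none of the genes on the 4 lists was called at GV or at MII.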

How the data were processed

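RNA-seq of 13 single mouse oocytes (SMART-seq2 cDNA, Tn5 libraries) was used, grouped by the submitters' sample labels. Per the submitters' processing notes the tools were Trim Galore 0.4.4, Bowtie2 2.3.5, RSEM 1.2.28 and DESeq2 1.20.0, with build mm10. The authors deposited RSEM's expected count values, 1 table per stage, in which reads that map to several genes are divided, and FPKM values, scaled to length and depth, in 1 table. No column was left unused.

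Expected counts were rounded. Genes in both count tables were filtered with filterByExpr, scaled by TMM and tested with edgeR 4.0.16 (R 4.3.3), glmQLFit and glmQLFTest with robust estimation, Benjamini-Hochberg adjusted over all genes tested and called under 0.05. Stage, stage within type and the interaction came from 1 fit of 4 groups, and types were compared within a stage. CPM are TMM-scaled. Replicates are separate oocytes, so p-values measure the spread between these oocytes, whose common biological coefficient of variation was 0.364 in the 4-group fit. The tests were checked on simulated data.

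Values were given for the largest rises and falls among called members whose stages did not overlap (up to 8 each), the 3 members of lowest p where none was called, close relatives, and the 5 highest and 3 lowest members by FPKM. The members, roles and lists were chosen with earlier results of these data known. Relative lengths were computed after the values had been seen. Alternatives were DESeq2 1.42.0, its size factors, library totals, no filter, limma 3.58.1 on log2(FPKM + 1) or log2(FPKM + 0.1), the replicate number as block, a change of at least 1.5-fold, and leaving out each library. Library totals were 7140416 to 8846287 counts, and precision is set by the 3 or 4 oocytes a group. Gene models came from GENCODE M21 (GRCm38), which held all 38 symbols. Protein sequences were not used here. Of the genes that met the rule 1, and of the pathway lists 2, are not reported here and stand in no member or list count, share or figure.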

Additional observations from a re-analysis of the deposited data

How the results depend on the processing

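Over the alternatives, the count of members called between stages stayed between 18 and 24 of those tested, beside 21. Leaving out 1 library gave 19 to 22 members, 14 to 19 within SN, 16 to 19 within NSN, 0 to 0 for types at GV, 0 to 2 for types at MII and 0 to 0 for the interaction. Types at MII gave 1 call with DESeq2 (Ube2c) and 2 without NSN-MII replicate 3 (Ube2c and Ube2g2), and the cause was not tested. Ube2r2 ranged to an adjusted p of 0.191, Ube2l3 to 0.128 and Ube2k to 0.414. Of the values of all 30 members between stages, 583 kept their direction and side of the threshold, 25 lost and 21 gained the call, and 1 changed sign (Ube2cbp at -0.0121 with library totals, not called).

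Replicate numbers are shared between groups, but same-numbered libraries did not deviate together (correlations of -0.458 to 0.202), so the numbers were not taken to pair them. With the replicate number as a block, 20 members were called between stages (7 higher and 13 lower), 15 within SN, 17 within NSN and 0 in the other comparisons. Shares of all genes called are not given for this or the other alternatives.

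Depth limits Ube2m, Ube2q1 and the 8 members that were not tested, all with few counts. GV and MII oocytes differ in time in culture as well as stage, and no batch or date is given, so these cannot be told apart.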

Other observations

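The median SD of log2(CPM + 1) over the 30 members was 0.201 in SN GV, 0.322 in NSN GV, 0.247 in SN-MII and 0.355 in NSN-MII oocytes, beside 0.263, 0.410, 0.313 and 0.391 for all 11375 genes. Ube2dnl1, an X-linked relative of the UBE2D genes that did not pass the filter, had 18, 12 and 3 counts in SN GV, 1, 2 and 5 in NSN GV and at most 3 in MII libraries.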
